A study of Saccharomyces cerevisiae with 24 samples.

Results

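The histone genes of Saccharomyces cerevisiae are described here through a temperature shift in 3 splicing factor mutants and a comparison strain. The set holds 10 genes, taken by name, out of 5493 genes with a name on the array. It comprises the 8 core histone genes, HTA1 and HTA2 (histone H2A), HTB1 and HTB2 (H2B), HHT1 and HHT2 (H3) and HHF1 and HHF2 (H4), together with HTZ1, which encodes the H2A variant H2A.Z, and HHO1, which encodes the linker histone H1. Each gene had 1 probe, and all 10 probes entered the tests.

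The strains were prp17 null, prp17-1, prp22-1 and SS330, the last taken as the comparison strain, and each was grown at 23C (0 min) and then held at 37C for 5, 15, 30, 60 or 120 min. PRP17, listed under its standard name CDC40, and PRP22 encode factors that act at the second step of pre-mRNA splicing, and PRP22 is the helicase that also releases the spliced mRNA. The labels give no further genotype for any strain and name no culture or isolate beyond the strain, so each strain stands for 1 course with 1 array per time, 24 arrays in all. Each array set total RNA of the strain (Cy5) against yeast genomic DNA (Cy3). The values below are the deposited log2 ratios after each array was centred on its median, and a gene's own baseline is unknown, so a value is read against the same gene on another array and never against another gene.

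In budding yeast the core histone genes lie in 4 neighbouring pairs that are read away from a shared promoter: HTA1 (YDR225W) with HTB1 (YDR224C), HTA2 (YBL003C) with HTB2 (YBL002W), HHT1 (YBR010W) with HHF1 (YBR009C), and HHT2 (YNL031C) with HHF2 (YNL030W). Their transcription takes place in late G1 and S phase, where it is switched on by Spt10 and the SBF factor. The HIR complex holds it off at other times at most, but not all, of these pairs. HTZ1 (YOL012C) and HHO1 (YPL127C) stand alone in the genome, and H2A.Z is placed into chromatin by the SWR1 complex. None of the 10 genes has an intron. Locus names are those of RefSeq for assembly R64.

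The arrays had values for 77.3% to 98.4% of the 6350 probes. Of the histone probes, 8 had a value on 24 arrays, HTA2 on 23 (missing in prp17 null at 30 min) and HTZ1 on 21 (missing in prp17 null and prp22-1 at 15 min and in SS330 at 0 min). CDC40 itself was low on every prp17 null array, at -2.76, -1.81, -0.63, -1.88, -1.50 and -1.58 over the 6 times, against -0.54, -0.07, 0.29, 0.41, 0.13 and -0.20 in SS330. Its difference at 37C was -1.59 (SE 0.16, limma adjusted p = 1.19e-05), and this, with the heat shock genes HSP104 and SSA4 standing 2.36 to 4.25 above 0 min on every 15 min array, is what set the direction of the ratio as RNA over DNA. The arrays at 37C spread by an SD over probes of 0.816 to 1.05 for prp17 null. That range was 0.598 to 0.846 for prp17-1, 0.603 to 0.906 for prp22-1 and 0.418 to 0.783 for SS330. At 60 and 120 min the SD was 0.927 and 1.05 in prp17 null, against 0.451 and 0.418 in SS330. The spread moves with the strain comparisons below, and values with every array set to 1 spread (an alternative added after the values had been seen) are quoted where they end a call. On the prp17 null array at 120 min the deposited median was 0.12, which centring removed. The values below are relative to the median.

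Histone transcripts fell after the shift to 37C. Averaged over the strains, all 10 genes were called lower at 37C than at 23C. Of tested probes, 30.7% were called in either direction and 16.9% lower. The median log2 change over the 10 genes was -1.27, against a median of 0.0024 over all tested probes. HTA1 moved furthest, by -1.49 (SE 0.26, limma adjusted p = 0.000426), and HHO1 least, by -0.43 (SE 0.15, adjusted p = 0.0304). The 4 H2A and H2B genes lay between -1.49 and -1.29, the H4 genes HHF1 and HHF2 at -1.25 and -1.29, the H3 genes HHT1 and HHT2 at -1.05 and -0.74, and HTZ1 at -0.81. HTZ1 had no SS330 value at 0 min, so its fall rests on the mutants. HHO1 changed little in SS330, at -0.41 at 0 min and a mean of -0.44 at 37C. The RNA came from whole cultures, in which a smaller share of cells in S phase and less histone RNA per S phase cell cannot be told apart, here and in the comparisons of strains.

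HTA1 was lower within 5 min. Its centred log2 ratio was -0.63, -1.54, -1.98, -2.17, -3.04 and -3.11 in prp17 null over 0, 5, 15, 30, 60 and 120 min, against -0.09, -1.52, -1.72, -2.19, -0.83 and -0.43 in SS330. It was -0.11, -1.22, -1.58, -1.79, -2.41 and -1.25 in prp17-1, and -0.02, -1.04, -1.36, -1.94, -1.35 and -1.50 in prp22-1. At 30 min prp17 null and SS330 read almost the same (-2.17 and -2.19), and the strains then parted, with prp17 null the lowest and SS330 the highest at 60 and 120 min. HTA1 was the 1 histone gene called at 5 min over the 4 strains (-1.12, SE 0.33, limma adjusted p = 0.0187), where 24.6% of probes were called in either direction and 14.6% lower. The call was lost without the SS330 array at 5 min or the prp17 null array at 0 min, and 5 genes were called without the prp17 null array at 120 min.

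By 15 min 6 of the 10 genes were called lower than at 0 min (30.0% of probes in either direction, 17.7% lower), by 30 min 9 (17.7% and 9.70%), at 60 min 8 (6.38% and 2.61%) and at 120 min 9 (18.1% and 9.95%), all with limma and the same adjustment. The calls are on means over strains that differed at 120 min. The median change of the 8 core genes was then -2.83 in prp17 null, -1.41 in prp22-1, -0.85 in prp17-1 and -0.30 in SS330. The gene outside the call at 30 min was HHO1 (-0.52, adjusted p = 0.0591), those outside it at 60 min were HHF1 (-1.39, adjusted p = 0.0782) and HHO1 (-0.44, adjusted p = 0.158), and the one outside it at 120 min was HHT2 (-0.69, adjusted p = 0.0549). These counts depend on the strain being a block: without it they were 0 at 5 min, 1 at 15 min, and 0 at both 60 and 120 min. Calls over all probes moved too, over the alternatives other than single arrays left out. They ran from 745 to 1511 (main fit 1350) at 5 min and 932 to 1729 (1648) at 15 min. At 60 min they ran from 28 to 756 (350) and at 120 min from 221 to 987 (993). Single arrays also moved the histone counts. At 15 min 1 gene was called without the SS330 array at 15 min, 2 without the prp17-1 or prp22-1 array at 15 min or the prp17 null array at 0 min, 3 without the prp17-1 array at 0 min, and 10 without the prp17 null array at 120 min. At 60 min 1 was called without the prp17 null or prp17-1 array at 60 min or the 0 min array of any mutant, and 5 without the prp17-1 array at 5 min or the prp22-1 array at 5, 30 or 60 min. At 120 min 2 were called without the prp17 null array at 120 min, 3 without the prp22-1 array at 120 min or the prp17 null or prp17-1 array at 0 min, and 5 without the prp22-1 array at 0 min. Leaving out together the 4 arrays with values for under 85% of probes (prp17 null at 0, 5 and 30 min and prp22-1 at 15 min) gave 1 call at each of 15, 60 and 120 min.

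**Figure D1:**
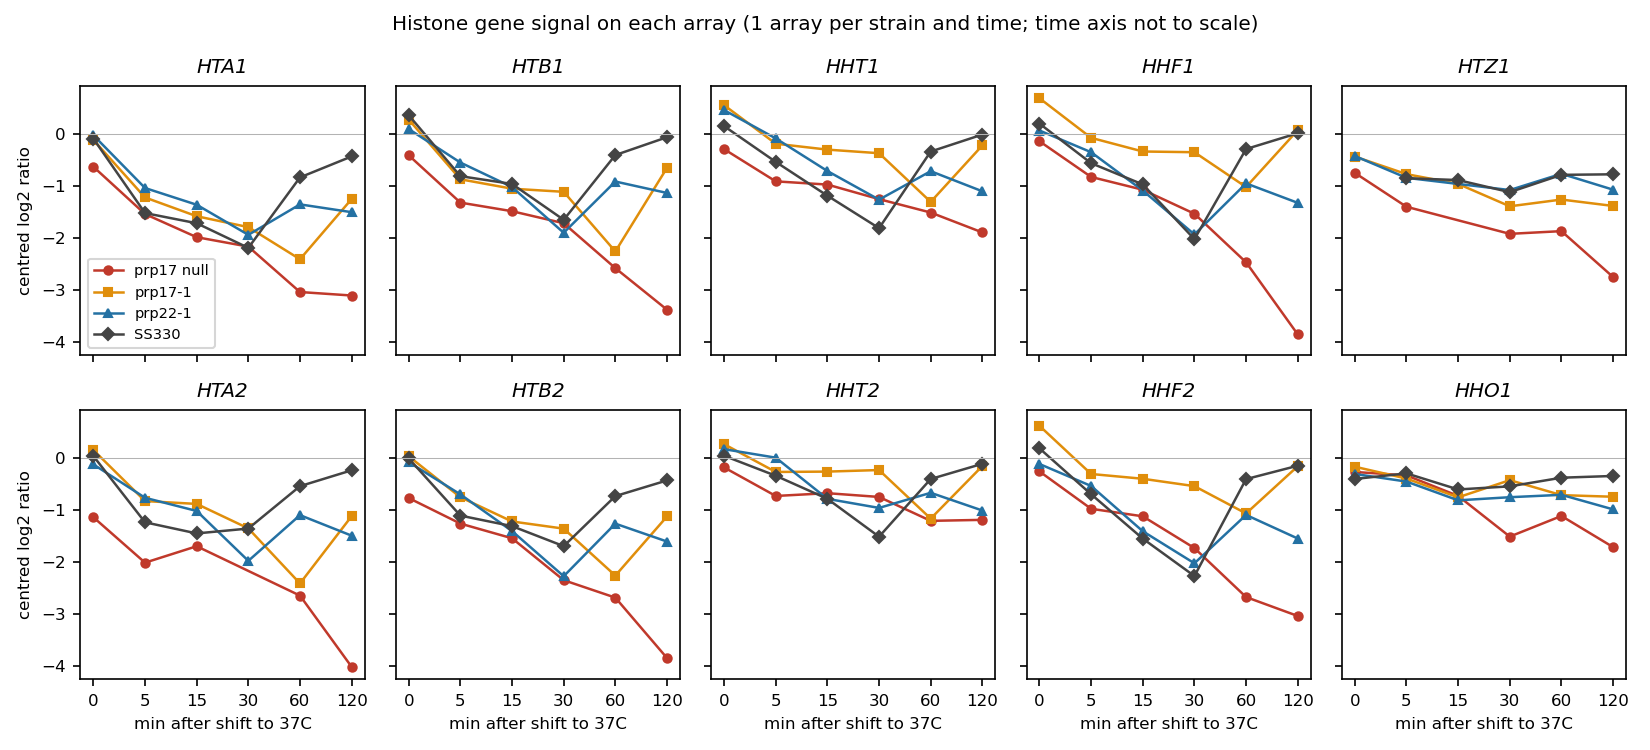
Centred log2 ratio (vertical axis, RNA over genomic DNA, each array minus its median) of the 10 histone genes at 0 min (23C) and 5 to 120 min at 37C (horizontal axis, not to scale); each point is 1 array, with prp17 null in red circles, prp17-1 in orange squares, prp22-1 in blue triangles and SS330 in grey diamonds. At 30 min every measured core histone gene was below its 0 min value in all strains; after that prp17 null read as low as values such as -3.86 for HHF1 at 120 min, while SS330 came back to values such as 0.02.

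The strains differed in when the core histone genes were lowest. In prp17 null the median change of the 8 core genes from 0 min was -0.70, -0.82, -1.40, -2.04 and -2.83 over 5, 15, 30, 60 and 120 min (7 genes at 30 min), and 7 of the 8 genes were lowest at 120 min (HHT2 at 60 min). In prp17-1 it was -0.86, -1.03, -1.28, -2.08 and -0.85, with all 8 lowest at 60 min. In prp22-1 it was -0.58, -1.16, -1.91, -1.01 and -1.41, and 7 were lowest at 30 min (HHT2 at 120 min). In SS330 it was -0.99, -1.33, -1.99, -0.59 and -0.30, and 7 were lowest at 30 min (HTA2 at 15 min). At 120 min the core genes of prp17 null and prp22-1 were thus further from their 0 min level than at 5 min, those of prp17-1 were as far from it (-0.85 against -0.86), and those of SS330 were nearer to it (-0.30 against -0.99).

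At the late times, 60 and 120 min averaged, the histone genes were far lower in prp17 null than in SS330. All 10 were called lower, where 31.1% of tested probes were called in either direction and 16.9% were called lower. Their log2 differences ran from -3.03 to -0.94 with a median of -2.51. The values of the 2 strains did not overlap for any of the 10 genes, with all of prp17 null below all of SS330, an arrangement that 36.9% of probes with 4 late values also showed. The p-values come from the spread between times of single courses, since no strain was repeated. Without the 120 min array of prp17 null, or without that of SS330, 7 genes were called, and HHT1, HHT2 and HHO1 were not. HHT2 was also lost without the 60 min array of either strain.

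HHF1, a gene for histone H4, had the largest difference. It was -0.14, -0.82, -1.07, -1.53, -2.47 and -3.86 in prp17 null over the 6 times, against 0.20, -0.56, -0.97, -2.02, -0.29 and 0.02 in SS330. At 30 min prp17 null was the higher strain, and at 60 and 120 min it was the lower one by more than at any earlier time. The late difference was -3.03 (SE 0.43, limma adjusted p = 0.00045), which is 8.15 times less signal in prp17 null on the centred scale. HHF2, the other H4 gene, was -0.26, -0.98, -1.13, -1.74, -2.68 and -3.04 in prp17 null, against 0.18, -0.70, -1.56, -2.28, -0.41 and -0.15 in SS330. It followed the same order, with a late difference of -2.58 (SE 0.33, adjusted p = 0.000232).

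Among the H2A genes, HTA1 differed at the late times by -2.44 (SE 0.24, limma adjusted p = 7.04e-05). HTA2 was -1.14, -2.02, -1.70, -2.65 and -4.02 in prp17 null at 0, 5, 15, 60 and 120 min, against 0.03, -1.24, -1.46, -0.55 and -0.24 in SS330. It differed by -2.94 (SE 0.45, adjusted p = 0.000735), and prp17 null was the lower strain at each of these 5 times, 0 min included. Both H2B genes followed. HTB1 was -0.41, -1.32, -1.48, -1.72, -2.58 and -3.38 in prp17 null, against 0.36, -0.81, -0.96, -1.65, -0.40 and -0.06 in SS330 (late difference -2.75, SE 0.40, adjusted p = 0.000533). HTB2 was -0.77, -1.27, -1.55, -2.36, -2.69 and -3.85 in prp17 null, against -0.01, -1.11, -1.32, -1.70, -0.74 and -0.44 in SS330, which put its late difference at -2.69 (SE 0.38, adjusted p = 0.000483). All 4 H2A and H2B genes of prp17 null had their lowest readings on the last array of the course.

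The H3 genes differed less. HHT1 was -0.29, -0.91, -0.97, -1.25, -1.51 and -1.89 in prp17 null, against 0.15, -0.54, -1.19, -1.81, -0.34 and -0.01 in SS330, a late difference of -1.53 (SE 0.32, limma adjusted p = 0.00359). HHT2 was -0.19, -0.74, -0.68, -0.75, -1.21 and -1.19 in prp17 null, against 0.04, -0.35, -0.79, -1.52, -0.41 and -0.12 in SS330, a late difference of -0.94 (SE 0.32, adjusted p = 0.0368). HHT2 had the smallest late difference of the core genes, and its call was lost when arrays were not centred (-0.85, adjusted p = 0.0554), when the time block was dropped (adjusted p = 0.0608) and when the fit held the arrays of the 2 strains alone (adjusted p = 0.067). With every array set to 1 spread, the differences of HHT1 and HHT2 were -0.85 (adjusted p = 0.105) and -0.42 (adjusted p = 0.419), neither of them called. Quantile normalization also ended both calls, at -0.86 for HHT1 (limma adjusted p = 0.101) and -0.39 for HHT2 (adjusted p = 0.474). So did counting 30 min as late, at -0.83 for HHT1 (limma adjusted p = 0.0879) and -0.37 for HHT2 (adjusted p = 0.374).

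HTZ1 and HHO1 moved less than most core genes. HTZ1 was -0.75, -1.40, -1.92, -1.87 and -2.75 in prp17 null at 0, 5, 30, 60 and 120 min, against -0.85, -0.88, -1.12, -0.78 and -0.77 in SS330 at 5, 15, 30, 60 and 120 min. Its late difference was -1.53 (SE 0.21, limma adjusted p = 0.000533). This direction holds on the centred scale and turns to 0.093 under quantile normalization, which keeps ranks. HHO1 was -0.27, -0.34, -0.73, -1.52, -1.12 and -1.72 in prp17 null, against -0.41, -0.30, -0.61, -0.55, -0.38 and -0.35 in SS330, and the late difference was -1.05 (SE 0.25, adjusted p = 0.00622). With every array set to 1 spread, HTZ1 differed by -0.39 (adjusted p = 0.0815) and HHO1 by -0.39 (adjusted p = 0.0983), both outside the call, whereas the H2A, H2B and H4 genes kept it, with 6 of 10 called. HHO1 was also outside the call with quantile normalization (-0.33, limma adjusted p = 0.156). The same held with the arrays of the 2 strains alone (limma adjusted p = 0.0516). The sizes of the H2A differences moved with the processing. Over the alternatives the late difference ran from -2.71 to -0.94 for HTA1 and from -3.83 to -1.57 for HTA2.

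**Figure D2:**
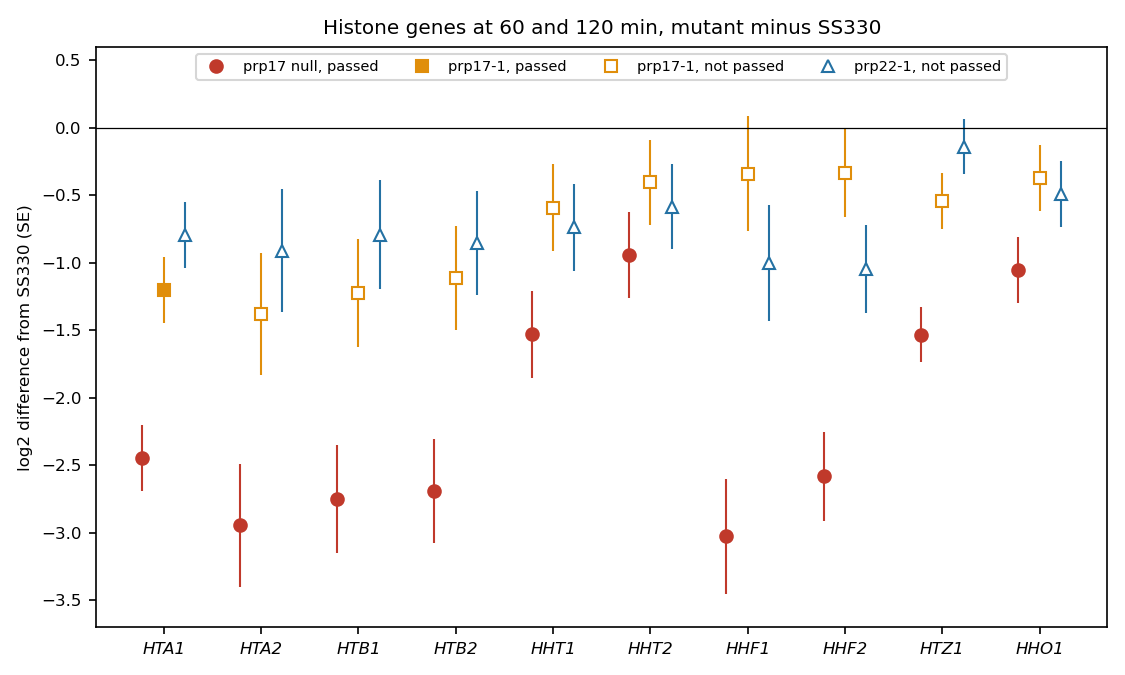
Log2 difference from SS330 at 60 and 120 min (vertical axis, limma estimate with SE bars) for each histone gene (horizontal axis), with prp17 null in red circles, prp17-1 in orange squares and prp22-1 in blue triangles; filled symbols passed an adjusted p under 0.05. All 10 prp17 null points are filled and lie between -3.03 and -0.94, HTA1 is the one filled point in prp17-1 at -1.20, and no prp22-1 point is filled.

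With the 5 times at 37C averaged, 6 of the 10 genes were called lower in prp17 null (HTA1, HTA2, HTB1, HTB2, HTZ1 and HHO1), where 34.0% of probes were called in either direction and 19.4% lower, and the median over the 10 was -1.05. HHF1 (-1.19, limma adjusted p = 0.0508) and HHF2 (-0.90, adjusted p = 0.085) fell outside the call and so did HHT1 (-0.53, adjusted p = 0.167) and HHT2 (-0.28, adjusted p = 0.38). The number called was 0 with every array set to 1 spread, 1 with quantile normalization, 1 with the arrays of the 2 strains alone and 3 without the SS330 array at 120 min. At 5 to 30 min 1 gene was called, HTZ1 at -0.67 (SE 0.20, adjusted p = 0.0382), where 16.1% of probes were called in either direction and 9.37% lower.

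The change of the strain difference with time was tested as such. For 6 genes the prp17 null difference at 60 and 120 min was below that at 5 to 30 min, where 4.47% of probes were called in either direction and 3.09% in that direction. The differences of differences were -3.07 for HHF1 (SE 0.55, limma adjusted p = 0.0158), -2.81 for HHF2 (SE 0.42, adjusted p = 0.0103), -2.38 for HTB1 (adjusted p = 0.0243), -2.35 for HTA1 (adjusted p = 0.00641), -2.34 for HTB2 (adjusted p = 0.0224) and -1.66 for HHT1 (adjusted p = 0.0414). HTA2 was as large at -2.26 but more variable (SE 0.62, adjusted p = 0.0543), and HHT2 (-1.10, adjusted p = 0.132), HTZ1 (-0.86, adjusted p = 0.105) and HHO1 (-0.68, adjusted p = 0.233) did not pass. The count rests on the last arrays: without the 120 min array of prp17 null, or without that of SS330, 0 of 10 were called, without the 15 min array of SS330 1 was, and without the 5 min array of SS330 or the 5 or 15 min array of prp17 null 3 were.

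At 23C the histone genes of prp17 null were already on the low side, without passing the test. Of the 9 genes with a value in both strains at 0 min, 0 were called, where limma called 0.205% of probes. An unadjusted limma p under 0.05 was reached by 0 of them and by 9.23% of probes. The median difference was -0.44, and HTA2 stood at -1.14 in prp17 null, against 0.03 in SS330. At the same time 0 of 9 genes were called by limma in prp17-1 (0.0576% of probes, median difference 0.22) and 0 of 9 in prp22-1 (0.0191%, median -0.07). In either mutant 0 had an unadjusted p under 0.05, where 2.09% (prp17-1) and 2.29% (prp22-1) of probes had one. When the difference at 37C was set against that at 23C, 0 histone genes and 0% of probes were called in any of the 3 mutants. At an unadjusted p under 0.05 the interaction counted 0 histone genes in each mutant. Over all probes it counted 375 (prp17 null, 7.67%), 74 (prp17-1, 1.42%) and 128 (prp22-1, 2.44%). Over 9 genes the interaction had a median of -0.52 for prp17 null, -0.29 for prp17-1 and -0.18 for prp22-1. Each of these tests rests on 1 array per strain at 23C.

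In prp17-1 the late difference was smaller, and uneven between the genes. HTA1 was called lower, at -1.20 (SE 0.24, limma adjusted p = 0.0221), and it was the 1 gene of 10 called, where 3.09% of probes were called in either direction and 2.05% lower. The other H2A and H2B genes had estimates of -1.38 for HTA2 (adjusted p = 0.134), -1.22 for HTB1 (adjusted p = 0.129) and -1.11 for HTB2 (adjusted p = 0.152), while the 4 H3 and H4 genes lay between -0.59 and -0.34. Over the 10 genes the median was -0.57, and in 6 of them both prp17-1 values lay below both SS330 values, as for 30.1% of probes. The HTA1 call was lost with quantile normalization (-0.63, adjusted p = 0.151, where HTA2 was the 1 gene called, at -1.07 with adjusted p = 0.0382), without the time block, with eBayes set to trend and robust, with 30 min counted as late, and without the SS330 array at 60 or at 120 min or the prp17-1 array at 60 min, and 2 genes were called without the prp17-1 array at 120 min. With the 5 times at 37C averaged limma called 0 of 10 genes in prp17-1 (3.17% of probes), with 0 at an unadjusted p under 0.05 (18.2% of probes).

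The prp17-1 course turned at 60 min. HTB1 was 0.28, -0.87, -1.05, -1.11, -2.26 and -0.65 over the 6 times in prp17-1, against 0.36, -0.81, -0.96, -1.65, -0.40 and -0.06 in SS330. HHF1 was 0.69, -0.07, -0.34, -0.35, -1.02 and 0.07 in prp17-1, so that it stood well above SS330 at 30 min (-0.35 against -2.02), below it at 60 min (-1.02 against -0.29) and beside it at 120 min (0.07 against 0.02). HHT2, the H3 gene with the flattest course, was 0.26, -0.27, -0.27, -0.24, -1.17 and -0.16 in prp17-1. HHO1, whose course was also shallow, was -0.17, -0.40, -0.76, -0.43, -0.72 and -0.75, and HTZ1 was -0.43, -0.77, -0.96, -1.39, -1.26 and -1.38, so these 2 genes did not come back at 120 min. The remaining core genes shared the low reading at 60 min: HTA2 was -0.83, -0.89, -1.36, -2.42 and -1.12 at 37C, and HTB2 was -0.76, -1.23, -1.36, -2.27 and -1.13. At 60 min all 10 genes were lower in prp17-1 than in SS330 (median difference -0.87), at 120 min 9 of 10 were (median -0.50), and at 30 min 1 of 10 was (median 0.47). At 5 to 30 min limma called 0 of 10 (1.57% of probes). An unadjusted p under 0.05 was reached by 4, where 14.8% of probes reached it in either direction. All 4 were higher: HHF2 at 1.09 (SE 0.27, adjusted p = 0.0615), HHF1 at 0.93 (adjusted p = 0.217), HHT1 at 0.89 (adjusted p = 0.124) and HHT2 at 0.63 (adjusted p = 0.265). The change from early to late times in prp17-1 had a median of -1.36 over the 10 genes, and limma called 0 genes and 0% of probes. An unadjusted p under 0.05 was reached by 8 of the 10 genes and by 431 probes (7.88%). Without the prp17-1 array at 120 min 1 gene was called.

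In prp22-1 the late differences were negative for all 10 genes, and none passed the test. The median was -0.79 and the range -1.05 to -0.14, with 5.71% of probes called in either direction and 2.21% lower. The nearest to the threshold were HTA1 (-0.80, SE 0.24, limma adjusted p = 0.0797) and HHF2 (-1.05, SE 0.33, adjusted p = 0.0848). An unadjusted p under 0.05 was reached by 5 of the 10, where 19.4% of probes reached it in either direction. With the arrays of prp22-1 and SS330 alone 2 genes were called, and 1 without the prp17-1 array at 60 or at 120 min, which shares in the estimate of the spread. HHF2 was -0.12, -0.54, -1.41, -2.03, -1.10 and -1.55 in prp22-1 over the 6 times, against 0.18, -0.70, -1.56, -2.28, -0.41 and -0.15 in SS330, so the strains ran together to 30 min and were apart at 60 and 120 min. HHT1 was 0.46, -0.08, -0.71, -1.26, -0.71 and -1.10 in prp22-1, and HTB1 was 0.10, -0.55, -1.02, -1.90, -0.91 and -1.13. Both had a low point at 30 min, a higher value at 60 min and a lower one again at 120 min, as had HTB2, at -0.08, -0.71, -1.41, -2.28, -1.27 and -1.61. HHO1 was -0.31, -0.46, -0.82, -0.76, -0.71 and -0.99 in prp22-1. At 5 to 30 min limma called 0 of 10 (1.84% of probes), with 0 at an unadjusted p under 0.05 (12.5% of probes) and a median of 0.08. In 9 of 10 genes both late prp22-1 values lay below both SS330 values, as for 33.7% of probes; the exception was HTZ1, at -0.76 and -1.07 in prp22-1 at 60 and 120 min, against -0.78 and -0.77 in SS330. Its late difference of -0.14 turned to 0.53 under quantile normalization, where HTZ1 was called higher in prp22-1 (limma adjusted p = 0.0491). With every array set to 1 spread it turned to 0.21. Averaged over 37C, limma called 0 of 10 in prp22-1 (3.48% of probes), with 0 at an unadjusted p under 0.05 (18% of probes). For the change from early to late times it called 0 of 10 (0.0182% of probes), with 4 at an unadjusted p under 0.05 (9.43% of probes).

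The mutants were also set against each other at the late times, a comparison added after the values had been seen. In prp17 null 7 of 10 genes were lower than in prp17-1, where 10.8% of probes were called in either direction and 5.58% lower: HTA1, HTA2, HTB1, HTB2, HHF1, HHF2 and HTZ1. The largest difference was that of HHF1, -2.69 (SE 0.43, limma adjusted p = 0.00284), and HHT1 (-0.94, adjusted p = 0.0755), HHT2 (-0.54, adjusted p = 0.279) and HHO1 (-0.69, adjusted p = 0.0861) did not pass. Against prp22-1, 7 of 10 (HTA1, HTA2, HTB1, HTB2, HHF1, HHF2 and HTZ1) were lower in prp17 null, where 22.0% of probes were called in either direction and 12.7% lower, led by HTA2 at -2.04 (SE 0.45, adjusted p = 0.00775) and HHF1 at -2.03 (SE 0.43, adjusted p = 0.00543). These comparisons share the prp17 null arrays. Between prp22-1 and prp17-1 limma called 0 of 10 (6.38% of probes). There 1 gene, HHF2 at -0.71 (SE 0.33, adjusted p = 0.244), had an unadjusted p under 0.05, as had 20.1% of probes.

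Grouped by the nucleosome's subunits, the mean courses of the H2A and H2B genes and of the H3 and H4 genes were set side by side. This grouping was chosen after the values had been seen and is given as values with no test. At 30 min the H3 and H4 genes stood higher against SS330 than the H2A and H2B genes in all 3 mutants. The mean differences for H2A and H2B, then H3 and H4, were -0.23 and 0.59 for prp17 null (3 H2A and H2B genes, HTA2 having no value there), 0.32 and 1.53 for prp17-1, and -0.30 and 0.36 for prp22-1. On the SS330 array at 30 min, which all 3 share, the H3 and H4 mean was -1.91, against -1.13 at 15 min. The H2A and H2B mean of SS330 was -1.73 at 30 min, against -1.36 at 15 min. In prp17-1 the H2A and H2B genes lay below the H3 and H4 genes at every time, at 0.01 and 0.39 at 0 min, 0.18 and 0.80 at 15 min, -1.71 and -0.78 at 60 min and -0.75 and -0.05 at 120 min. In prp17 null the means were -2.11 for H2A and H2B and -1.61 for H3 and H4 at 60 min, and -3.30 and -2.43 at 120 min, and the groups were already apart at 0 min, at -0.81 and -0.36. The H3 and H4 genes of prp17 null spread widely at 120 min, with differences from -3.87 (HHF1) to -1.08 (HHT2). In prp22-1 the groups lay close to each other at 60 min (-0.53 and -0.50) and at 120 min (-1.15 and -1.18).

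**Figure D3:**
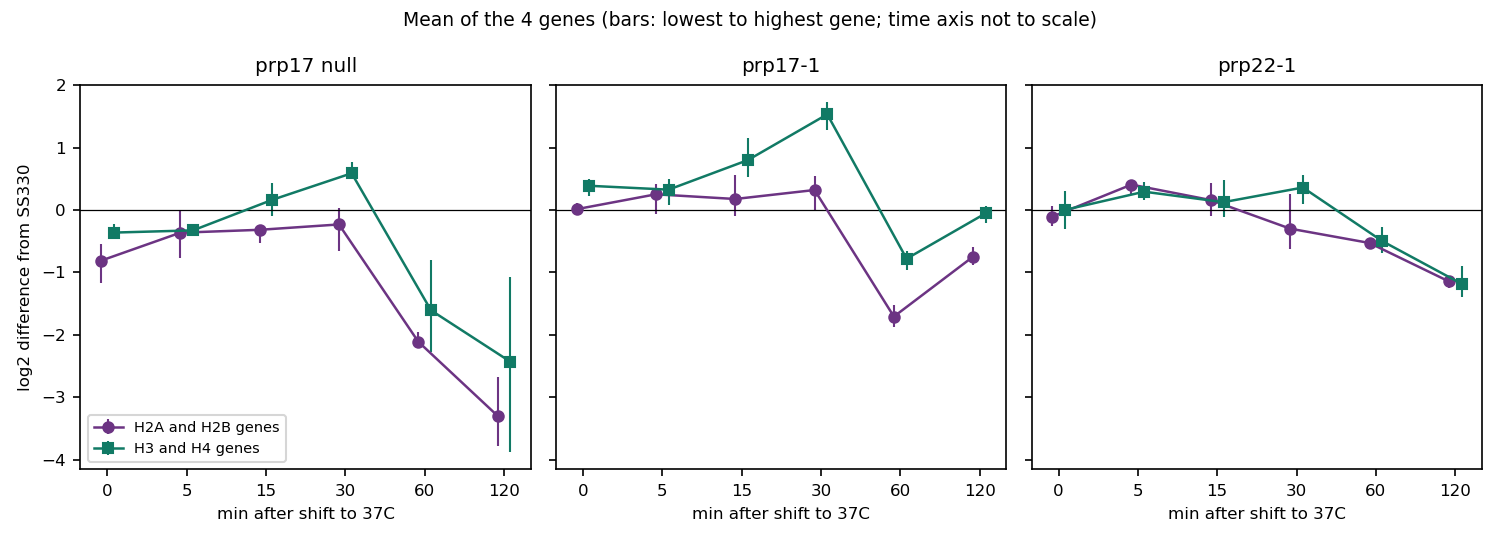
Mean log2 difference from SS330 (vertical axis) of the 4 H2A and H2B genes (purple circles) and the 4 H3 and H4 genes (green squares) by time (horizontal axis, not to scale) in prp17 null, prp17-1 and prp22-1; bars run from the lowest to the highest gene, and HTA2 is missing in prp17 null at 30 min. At 30 min the green squares lie above the purple circles in all 3 mutants, by most in prp17-1 (1.53 and 0.32), and in prp22-1 the groups lie together at 120 min (-1.18 and -1.15).

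The copies of each histone gene were compared in how far they departed from SS330. Each copy difference in a mutant was set against that in SS330 at each time at 37C and tested over the times with a 2-sided exact permutation test that flips signs. Across 12 tests, 4 pairs in 3 mutants, the means ran from -0.29 to 0.44 log2 units and none passed, with adjusted p from 0.833 to 0.938. With 5 times the smallest p this test can give is 0.0625, and 0.125 for HTA1 and HTA2 in prp17 null, where 4 times had values. The largest mean was that of HTA1 minus HTA2 in prp17 null, 0.44 ± 0.59 (SD over 4 times).

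Most of the largest departures of the copies from SS330 lay on the prp17 null array at 120 min. For HTA1 minus HTA2 in prp17 null the excess over SS330 was 0.64 at 0 min, before the shift, and then 0.76, -0.02, -0.10 and 1.11 at 5, 15, 60 and 120 min. In prp22-1 the same pair reached 0.87 at 30 min, a time at which the copies of SS330 stood at -0.83. On the prp17 null array at 120 min HTA1 was -3.11 and HTA2 -4.02, HHT1 was -1.89 and HHT2 -1.19, and HHF1 was -3.86 and HHF2 -3.04. The H3 pair lay there 0.81 below its difference in SS330 and the H4 pair 0.98 below it, against -0.22 and 0.10 at 0 min. The difference between HTB1 and HTB2 was within 0.10 of that in SS330 on that array. The copies of a pair are near-identical in their coding sequence, and each probe may take up signal of both, so differences between copies are uncertain.

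**Figure D4:**
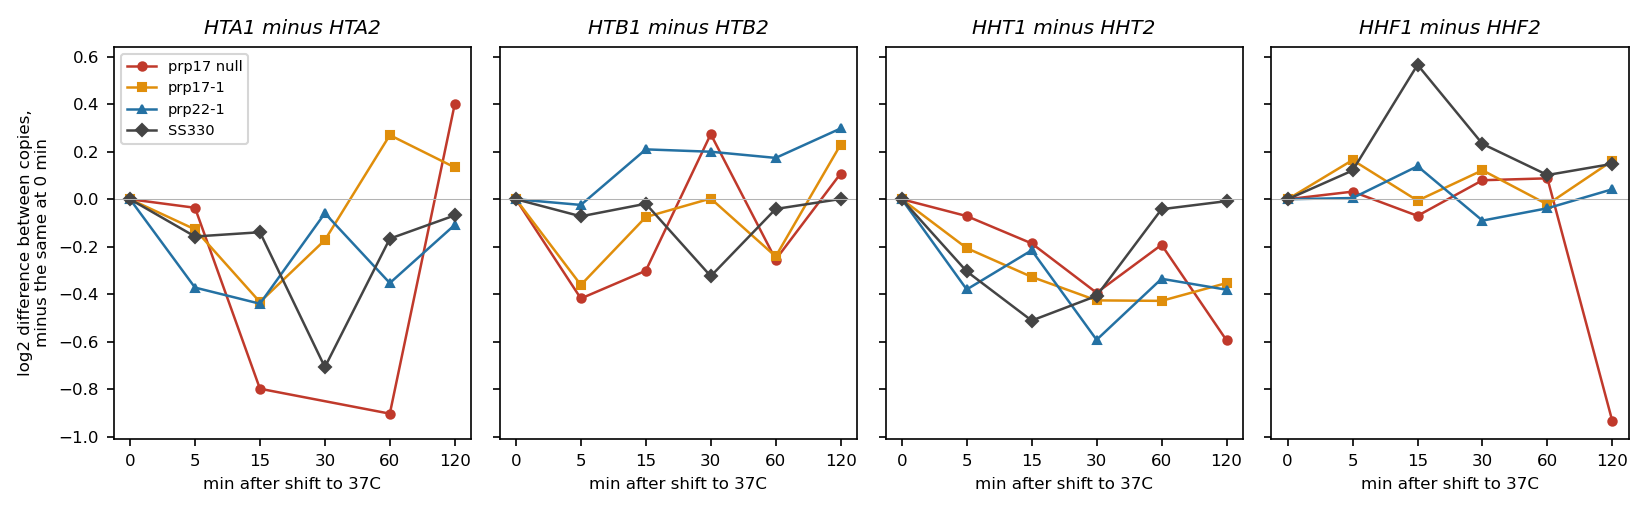
Difference between the log2 ratios of the 2 copies of each core histone (copy 1 minus copy 2, vertical axis), each course minus its own value at 0 min, by time (horizontal axis, not to scale), 1 array per point, for prp17 null (red circles), prp17-1 (orange squares), prp22-1 (blue triangles) and SS330 (grey diamonds). Of 79 points after 0 min, 71 lie within 0.5 of 0, and the furthest 3 are in prp17 null: the H4 copies at 120 min (-0.94) and the H2A copies at 60 min (-0.90) and 15 min (-0.80).

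Over the arrays the copies followed each other closely. Pearson's r was 0.914 for HTA1 and HTA2 (23 arrays), 0.978 for HTB1 and HTB2, 0.969 for HHT1 and HHT2 and 0.975 for HHF1 and HHF2 (24 arrays each). Between neighbours on a shared promoter it was 0.968 for HTA1 and HTB1, 0.963 for HTA2 and HTB2, 0.911 for HHT1 and HHF1 and 0.907 for HHT2 and HHF2. HTZ1 had an r of 0.844 with the mean of the 8 core genes and HHO1 one of 0.795. CSE4, the centromeric H3 variant, had one of -0.03: it was 0.38, 0.12, 0.20, -0.90, 0.58 and 0.92 in prp17 null, against 0.52, -0.01, -0.07, 0.25, 0.47 and 0.52 in SS330, and its late difference was 0.25 (SE 0.28, limma adjusted p = 0.522). The arrays share strains and times, so these r values describe the courses and carry no test.

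The 8 probes whose course was most like the core histone mean, by Pearson's r among 5477 probes, were led by SUR7 (0.893), a membrane protein of the eisosome region, and CCW12 (0.861), a cell wall mannoprotein. They were followed by a probe with no gene name (0.860), YPT7 (0.852, a vacuolar Rab GTPase), ERP2 (0.833, a p24 protein of secretory vesicles), the ribosomal protein genes RPS4A (0.832) and RPS31 (0.826), and SFG1 (0.821). Of these 8, 3 were also among the first 8 by Spearman's rho. For HTZ1 the nearest were YPT7 (0.942), SEC53 (0.923) and CCW12 (0.920), and for HHO1 they were SBH1 (0.933), BUD8 (0.888) and CCW12 (0.882).

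Part of a mixed list of genes for G1/S and DNA replication was also lower in prp17 null. Of 26 listed genes for G1/S and DNA replication, 23 were tested, and 17 fell at 37C over the 4 strains while 0 rose (16.9% of probes lower and 13.8% higher), with the largest falls in CLN2 (-1.11, limma adjusted p = 0.00149) and DUT1 (-0.95, adjusted p = 0.000722). At the late times 11 of 23 were lower and 0 higher in prp17 null than in SS330 (16.9% of all probes were lower and 14.2% higher), with a median of -0.70, against -2.51 for the 10 histone genes and -0.02 over all probes. Among these were CDC6, which loads the replicative helicase (-1.76, adjusted p = 0.00152), CLN2 (-1.69, adjusted p = 0.00332) and POL30, the sliding clamp of DNA polymerase (-1.43, adjusted p = 0.00767). Over all times at 37C 11 were lower in prp17 null (19.4% of all probes were), led by CLN2 (-1.16, adjusted p = 0.00302) and CDC6 (-1.13, adjusted p = 0.00332). In prp17-1 1 was lower at the late times (2.05% of all probes were), MCM3 (-0.82, adjusted p = 0.0398). In prp22-1 3 were lower over all times at 37C (1.68% of probes were), POL30 (-1.13, adjusted p = 0.0221), RFA2 (-1.10, adjusted p = 0.0183) and TOS4 (-0.70, adjusted p = 0.0356). At the late times limma called 0 in prp22-1, with 4 at an unadjusted p under 0.05 (19.4% of all probes). The part of these genes in the histone values was not tested.

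The genes that control histone transcription showed no common direction. Of 15 listed, 13 were tested. At the late times 2 were called higher and 2 lower in prp17 null, where 14.2% of probes were called higher and 16.9% lower. SWI4, the DNA-binding part of SBF, was then higher in prp17 null than in SS330 (0.81, limma adjusted p = 0.0309), as was the elongation factor gene SPT6 (0.62, adjusted p = 0.0303), while HIR2, a part of the HIR complex, was lower (-1.14, adjusted p = 0.00181), as was RTT109, the H3 acetyltransferase (-1.13, adjusted p = 0.00098). Averaged over 37C, where 14.6% of probes were called higher and 19.4% lower, SWI4 (0.51, adjusted p = 0.0423) and YTA7 (0.51, adjusted p = 0.0367) were higher and HIR2 lower (-0.87, adjusted p = 0.0027). The shift to 37C over strains gave 1 call (30.7% of all probes were called), SPT6 (-0.41, adjusted p = 0.0216).

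Of 15 genes for histone chaperones, assembly and import, 10 were tested. At the late times 2 were higher and 1 lower in prp17 null, near the 14.2% and 16.9% of all probes, and the list's median was -0.06. NAP1, the chaperone of H2A and H2B, was higher in prp17 null (1.06, limma adjusted p = 0.00367), as was SPT16, a subunit of FACT (0.93, adjusted p = 0.00563), and NHP6A, an HMG-box partner of FACT, was lower (-0.87, adjusted p = 0.00724). At 37C as a whole 2 were higher and 2 lower, where 14.6% and 19.4% of all probes were: NAP1 (0.80, adjusted p = 0.0015) and SPT16 (0.71, adjusted p = 0.00295) were higher, and NHP6B (-0.55, adjusted p = 0.0209) and NHP6A (-0.45, adjusted p = 0.0402) lower. The shift over strains lowered 2 (16.9% of all probes fell), KAP123 (-1.12, adjusted p = 0.00155), an importin that carries H3 and H4, and NHP6A (-0.53, adjusted p = 0.00407).

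All 13 listed genes of the SWR1 complex were tested. At the late times 3 were called in prp17 null, where 31.1% of all probes were, and over all times at 37C 2 were, where 34.0% were. In the late comparison SWC4 (0.64, limma adjusted p = 0.0111) and SWC5 (0.56, adjusted p = 0.0442) were higher and ARP6 (-0.77, adjusted p = 0.0439) lower in prp17 null, and BDF1, a bromodomain protein, was higher in prp22-1 (1.33, adjusted p = 0.00422), where 3.50% of probes were. Over 37C SWC4 (0.36, adjusted p = 0.0272) and VPS72 (0.30, adjusted p = 0.0408) were higher in prp17 null, and over strains the shift gave RVB2 (-0.35, adjusted p = 0.0231) and SWC5 (0.32, adjusted p = 0.0448). Of the 7 genes listed for removal of surplus histones and histone mRNA, all tested, 3 were lower and 0 higher in prp17 null over all times at 37C, where 19.4% of all probes were lower and 14.6% higher: PAP2 (-0.51, adjusted p = 0.0114) and TRF5 (-0.59, adjusted p = 0.0304), the poly(A) polymerases of the TRAMP complex, and RRP6 (-0.59, adjusted p = 0.0454), the nuclear exosome nuclease. RRP6 was also the 1 call of the shift in this list (-0.73, adjusted p = 0.00257). At the late times limma called 0 of the 7 in prp17 null (31.1% of all probes), with 1 at an unadjusted p under 0.05 (42.2% of all probes). Outside the G1/S list, the 43 tested genes of these lists held 1 call in prp22-1, BDF1, and 0 in prp17-1. Over all probes limma called 3.17% at 37C and 3.09% at the late times in prp17-1, and 3.48% and 5.71% in prp22-1. In prp17-1 9 of the 43 had an unadjusted p under 0.05 over all times at 37C (18.2% of all probes) and 5 at the late times (16.6%). In prp22-1 these counts were 6 (18%) and 9 (19.4%).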

How the data were processed

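Total RNA of each strain and time (Cy5) was hybridised with yeast genomic DNA (Cy3), per the labels. The authors deposited 1 log2 ratio per probe and array; the base was taken as 2, and the direction was read from the values. How the authors corrected background, normalized and filtered is not given in the sources used here. Each array had its median subtracted. The 6350 probes include 5527 with 1 gene name, and the 10 histone genes matched 10 probes. Testing required values on 20 or more of the 24 arrays and, within each strain, on 3 or more of the 5 at 37C, which left 5487 probes and left out 863.

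All arrays entered each limma model (lmFit and eBayes, limma 3.58.1, R 4.3.3). P-values were adjusted by Benjamini-Hochberg across the tested probes, and a call is an adjusted p under 0.05. The time point was a block in comparisons of strains and the strain in comparisons of times, since the labels give every strain the same times. A fit used the arrays where the probe had a value, and imputed none. The alternatives were other centring, quantile normalization, filters, blocks, moderation and late times, and leaving out single arrays. Leaving out together the 4 arrays with few values, setting every array to 1 spread, and the comparisons between mutants were added after seeing the data. Scripts were tested on simulated data. Python 3.11.15, numpy 2.4.6, pandas 2.3.3 and matplotlib 3.10.9 made tables and figures.

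Histone genes, CSE4 and CDC40 were always named. From 5 lists (histone gene transcription, chaperones, the SWR1 complex, removal of surplus histones, G1/S and replication) the rule names the 2 largest rises and falls among called genes, for each strain at 37C and for the shift. The list genes of the late times, TOS4 in prp22-1 and PAP2 in prp17 null fall outside that rule and were named after their values were seen. The members and lists were chosen with earlier results of these data known. The arrays of 1 strain are times of 1 course, so p-values measure the spread between times and not between cultures. The values hold no signal over background, so its part in precision is unknown. The number of arrays, the missing values and the unlike spread of the arrays are limits that can be seen.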

Additional observations from a re-analysis of the deposited data

Results flagged for a closer look

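In prp17-1 the array at 60 min stood far below the other 4 arrays at 37C for 3 genes: HTB1 at -2.259, HHT1 at -1.305 and HHT2 at -1.171. Of 40 groups of arrays examined (10 genes in 4 strains), 3 held such a value. A rate of 1 in 20, or 2 of 40, would hold for independent groups of repeats. These groups share arrays and hold different times, so the count cannot be set against chance. All 8 core histone genes were lowest on that array in prp17-1. Each strain and time had 1 array.

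The prp17 null difference from SS330 changed between 5 to 30 min and 60 and 120 min, by a limma test of that change, for 6 genes. The change was -3.07 for HHF1, -2.81 for HHF2, -2.38 for HTB1, -2.35 for HTA1, -2.34 for HTB2 and -1.66 for HHT1. All 6 changes were downward, and limma called 0 of 10 genes without the 120 min array of prp17 null or without that of SS330.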

How the results depend on the processing

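The late fall in prp17 null kept its direction for 9 of 10 genes in all alternatives (HTZ1 turned to 0.093 with quantile normalization), and its count of 10 was 6 with quantile normalization, 6 with every array set to 1 spread, and 7 to 10 when single arrays were left out. Over all times at 37C the prp17 null count of 6 was 1 with quantile normalization, 1 with the arrays of the 2 strains alone, 0 with 1 spread, and 3 to 8 leaving out single arrays. Its change from early to late times, 6 genes, gave 2 with quantile normalization, 3 with no replicate block, 2 with 30 min counted as late, 3 without the 4 arrays with few values, 3 with 1 spread, and 0 to 8 leaving out single arrays. In prp17-1 at the late times the count of 1 was 0 with no replicate block, 0 with trend and robust moderation, 0 with 30 min counted as late, 4 with 1 spread, and 0 to 2 leaving out single arrays; its change with time gave 0 to 1. In prp22-1 at the late times the count of 0 was 1 with quantile normalization, 2 with the arrays of the 2 strains, and 0 to 1 leaving out single arrays. The call with quantile normalization was HTZ1, and it was higher in prp22-1 (0.53, limma adjusted p = 0.0491). For 37C against 23C over strains the count of 10 was 6 with no replicate block (8 to 10 leaving out single arrays). Against 0 min, with no replicate block, the count was 0 at 5, 60 and 120 min and 1 at 15 min. Without the 4 arrays with few values they were 1 at 15, 1 at 60 and 1 at 120 min. At 5 min quantile normalization and 1 spread each gave 2. Leaving out single arrays, the range at 5 min was 0 to 5, the range at 15 min 1 to 10, at 30 min 7 to 10, at 60 min 1 to 9 and at 120 min 2 to 10. Signs turned with quantile normalization for HHT1 (0.0031), HHT2 (0.185) and HTZ1 (0.046) in prp17 null over 37C, for HTZ1 at the late times in prp17-1 (0.22) and prp22-1 (0.53), and for its change with time in prp17 null (0.090). They turned with 1 spread for HHT2 in prp17 null over 37C (0.109) and HTZ1 in prp22-1 (0.21). With 30 min counted as late they turned in prp17-1 for HHF1 (0.33), HHT1 (0.088), HHF2 (0.35) and HHT2 (0.16). Leaving out single arrays, the late values in prp17-1 ran from -1.13 to 0.45 for HHF1, -1.21 to 0.028 for HHT1, -0.88 to 0.21 for HHF2 and -0.91 to 0.11 for HHT2, all highest without the prp17-1 array at 60 min, and HTZ1 in prp22-1 ran from -0.36 to 0.086. HHT1 minus HHT2 in prp17-1 was -0.19 over 60 and 120 min alone. With Spearman's rho 3 of the 8 most alike probes were shared. Of 2047 values for single genes under alternatives, 1889 kept direction and side of the threshold, 112 lost the call, 28 gained it and 18 turned. Counts over all probes moved too: 769 to 1973 against 1863 for prp17 null at 37C, 809 to 2237 against 1704 at the late times, 86 to 536 against 245 for its change with time, 91 to 859 against 169 in prp17-1 and 199 to 875 against 313 in prp22-1 at the late times, and 0 to 226 against 0 for the prp17 null interaction. For the times set against 0 min, they were 745 to 1511 (1350 in the main fit) at 5 min and 932 to 1729 (1648) at 15 min. At 60 min they were 28 to 756 (350) and at 120 min 221 to 987 (993). The cause of these moves was not tested, except that alternatives with fewer arrays or probes hold less data. One array per strain and time is a limit throughout, and signal over background was not analysed here. Promoter motifs were not searched.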
